A study of Mus musculus with 8 samples.

Results

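The probes described here are the 315 printed DNA sequences that hold the vertebrate telomere hexamer TTAGGG, or its reverse complement CCCTAA, on a microarray made to record where UV light leaves DNA lesions. They were found by searching the 122086 printed sequences that end in the same 24 bases, out of 122095 printed sequences in all. The hexamer was on the printed strand as TTAGGG in 167 probes and as CCCTAA in 148 probes, and each probe held 1 copy. The rule of the choice uses the sequence alone, but it was set with earlier results of these data known.

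The 8 arrays form 4 groups of 2, named by antibody and condition. They are UV-irradiated arrays stained with a mouse antibody against cyclobutane pyrimidine dimers (CPDs), non-UV arrays with the same antibody, UV-irradiated arrays stained with a mouse antibody against 6-4 photoproducts (6-4PPs), and non-UV arrays with that antibody. The CPD antibody was used at 1:400 and the 6-4PP antibody at 1:80, both read in the Alexa 488 channel. The DNA was synthetic and printed without cells or chromatin. How much UV was given, how the arrays were stained and how the second strand was made is not stated in the sources used here.

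Telomeres cap chromosome ends, and in vertebrates they are tandem repeats of TTAGGG on a G-rich strand paired with CCCTAA repeats on a C-rich strand. UV light joins neighbouring pyrimidines, and CPDs and 6-4PPs are the main forms that such a joint takes. CPDs form readily at thymine pairs, while 6-4PPs form readily at thymine followed by cytosine. Within the hexamer, the places where 2 pyrimidines follow each other (called steps here) number 4. These are 1 TT step on the G-rich strand, and 1 CT step and 2 CC steps on the C-rich strand. In a tandem telomere repeat the base before TTAGGG is always G and the base after it is always T.

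Each probe has 60 bases, of which the first 27 vary and the last 33 are shared. The sequences below are the variable part, 5′ to 3′ on the printed strand, with the hexamer in capitals. They are shown because, pair by pair, they differ in a single base next to the hexamer and hold no step outside it. The substitution in each pair names the base of the second probe, its position from the 5′ end of the probe, and the base of the first probe.
All_8mer_43272: gtatgcacaTTAGGGtatgtatgcacg
All_8mer_43276: gtatgcacgTTAGGGtatgtatgcacg
This pair differs by G9A, so that TTAGGG follows A in the first probe and G in the second.
All_8mer_10818: gtatgcaTTAGGGtgtatgtatgcacg
All_8mer_10819: gtatgcgTTAGGGtgtatgtatgcacg
This pair differs by G7A. As in the pair above, T follows the hexamer, so the second probe carries the bases of the tandem repeat on both sides.
All_8mer_34112: gtatgcaCCCTAAtgtatgtatgcacg
All_8mer_46400: gtatgcaCCCTAAcgtatgtatgcacg
This pair, with CCCTAA on the printed strand, differs by C14T, which on the other strand is A or G before TTAGGG, again with T after it.
The longest stretch of repeat on any probe was 11 bases, in the following sequence, so no probe held 2 full units.
All_9mer_14bp_19219: atgcactagggTTAGGGgatgcgcacg
The shared end, which holds 0 steps, follows the variable part on every probe.
Shared end: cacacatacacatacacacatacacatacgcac

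The hexamer started between base 6 and base 14 of the probe, with a median of base 10. The base before it, read on the strand with TTAGGG, was A in 121 probes, C in 70, G in 60 and T in 64. The base after it was A in 69 probes, C in 65, G in 71 and T in 110. Steps outside the hexamer, counted on both strands and called other steps, ranged over the probes from 0 to 8 with a median of 3. Counting the hexamer, the probes held a median of 7 steps, against 5 over all sequences. The design families in the names of the probes gave 92 probes (All_8mer), 38 probes (All_8mer_13bp) and 185 probes (All_9mer_14bp). A single spot was printed for 311 of the probes and 2 spots for the other 4, so a probe's value on an array rests almost always on 1 spot.

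Values are the deposited adjusted intensity, a linear brightness corrected by the authors for position on the array, without background subtraction. The median over all sequences was 3733 and 3388 on the UV arrays and 1231 and 1042 on the non-UV arrays for the CPD antibody, and 6629 and 6624 on the UV arrays and 1511 and 1231 on the non-UV arrays for the 6-4PP antibody. Effects of UV are differences of log2 intensity, UV minus non-UV, after each array was centred on its own median. On that scale an effect of 0 is the rise of the median sequence, which was 1.65 for CPD and 2.28 for 6-4PP before centring. Spots at the scanner ceiling numbered between 88 and 193 per array, and 3 telomere unit probes had such a spot on some array.

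Arrays with the same replicate number deviated together across the antibodies. Over all sequences, the difference between replicate 1 and replicate 2 of the UV arrays correlated at 0.707 between the CPD and the 6-4PP antibody, and at 0.765 for the non-UV arrays. Over the 315 probes these correlations were 0.845 and 0.853. Between UV and non-UV arrays of the CPD antibody the correlation was 0.000789. Single spots were bright in the same way. All_8mer_13bp_1647 had 68081 on the first non-UV array of the CPD antibody, against 1194 on the second, and 68436 on the first non-UV array of the 6-4PP antibody, against 1056 on the second. The values of the antibodies are therefore not independent of each other, and the cause was not tested. Nothing in the labels says that the 2 arrays of a group are separate irradiations, so p-values measure the spread between these arrays.

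Probes with the telomere hexamer were brighter than the median sequence on the UV arrays of both antibodies and lay close to it on the non-UV arrays. Their median intensity was 7131 and 6449 on the CPD UV arrays, against 1240 and 1040 on the CPD non-UV arrays. With the 6-4PP antibody it was 11909 on both UV arrays, against 1507 and 1222 on the non-UV arrays. The UV arrays lay far above the non-UV arrays for both antibodies, by 5.97-fold for CPD and 8.78-fold for 6-4PP before centring. Relative to the median sequence, the level of TTAGGG rose by 0.93 for CPD (SE 0.0107, limma adjusted p = 1.32e-09) and by 0.85 for 6-4PP (SE 0.0107, limma adjusted p = 5.18e-09). Such calls are common on this array: 98.2% of the 2080 6-mers passed the threshold in either direction for CPD and 96.3% for 6-4PP. The telomere hexamer ranked 449 of 2080 from the highest for CPD and 259 of 2080 for 6-4PP. After regression on how many steps of each type a probe holds, its level was 0.59 for CPD, at rank 129, and 0.69 for 6-4PP, at rank 176 (SE 0.0221 each). The effects of the antibodies differed by 0.07 (CPD minus 6-4PP, limma adjusted p = 0.00331), where 87.4% of the 6-mers passed and 82.0% after that regression, but the sign of that difference depended on the scaling, being -0.56 without centring and -0.17 after quantile normalization.

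Taken singly, 255 of the 315 probes rose above the median sequence with the CPD antibody and 2 fell below it, where 39.5% of all sequences were higher and 40.2% lower. With the 6-4PP antibody 213 rose and 40 fell, where 36.4% of all sequences were higher and 39.9% lower. With the dimmest 25% of probes left out, 166 rose and 27 fell with CPD, and 166 rose and 62 fell with 6-4PP. Each array was then centred on the median of the kept, brighter probes, so the reference was higher. Of the 185 probes of the All_9mer_14bp family alone, centred on the median of that family, 105 rose and 20 fell with CPD. The 2 that fell with CPD were 4 without either 6-4PP non-UV array and 1 without the first CPD UV array. Without centring, 0 probes were lower with either antibody by limma, adjusted or at an unadjusted p under 0.05, so lower here means less than the median sequence and never less than without UV. The lower UV array exceeded the higher non-UV array in 309 probes for CPD and 308 for 6-4PP, at a background of 97.4% and 97.8% of all sequences. The difference between the antibodies passed in 105 probes on the CPD side and 34 on the 6-4PP side, where the shares over all sequences were 33.6% and 18.1%, and without centring the split was 26 against 71. The 34 on the 6-4PP side were 16 without the first CPD non-UV array, and 22 without the second CPD UV array or without the first 6-4PP UV array. After quantile normalization far fewer probes passed, with 24 that rose with CPD, and 21 that rose and 1 that fell with 6-4PP. The shares over all sequences given here belong to the main fit, and those under the alternatives are not given.

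The base in front of the hexamer set the probes apart, and the gap was wider with the 6-4PP antibody than with the CPD antibody. On the CPD UV arrays the median intensity was 8466 and 8290 with A before TTAGGG, against 6257 and 5527 with G before it. On the CPD non-UV arrays the same probes had 1236 and 1031 with A, against 1252 and 1047 with G. With the 6-4PP antibody and UV the medians were 14968 and 15398 with A, against 5490 and 6045 with G. On the 6-4PP non-UV arrays they were 1522 and 1222 with A, against 1486 and 1248 with G. The probes with A were thus brighter on every UV array, and the arrays without UV showed no such gap. Neither A nor G adds a step at the junction, which C and T do.

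As a contrast computed for every 6-mer, A minus G before TTAGGG was 0.53 for CPD (SE 0.0538, limma adjusted p = 3.02e-05) and 1.40 for 6-4PP (SE 0.0538, limma adjusted p = 3.55e-08), which is a 2.63-fold gap for 6-4PP. This contrast was chosen after the values of the 8-mers had been seen. The antibodies differed by -0.865 in this gap (CPD minus 6-4PP, SE 0.0761, limma adjusted p = 2.03e-05). After quantile normalization that difference was -0.42 with an adjusted p of 0.132, while the contrast itself stayed past the threshold for each antibody. Calls of this contrast were made in 75.3% of 2015 6-mers for CPD, in 83.3% for 6-4PP and in 63.2% for the difference between the antibodies. The gap is not particular to the telomere hexamer. Among the 246 6-mers that begin with TT, each named by the alphabetically later of its 2 strands, it ranked 188 from the highest for CPD, where the median was 0.77, and 69 for 6-4PP, where the median was 1.12.

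The same gap was present in pairs of probes whose sequences differed in that base alone. There were 15 pairs of telomere unit probes identical except for A or G before TTAGGG, 8 with TTAGGG printed and 7 with CCCTAA printed, all from the All_8mer family. The pairs were looked for after the contrast had been seen, and their values are given without a test. In some of them the base forms a step with the base outside it, so the step type changed as well. TT with A became CT with G in All_8mer_43270 and All_8mer_43274, and in All_8mer_1344 and All_8mer_13632. TC with A became CC with G in All_8mer_43271 and All_8mer_43275, and in All_8mer_50496 and All_8mer_62784. Those pairs do not separate the base from the step type. The pairs shown above hold no step outside the hexamer. All_8mer_43272, with A, had 11744 and 10134 on the CPD UV arrays, against 4979 and 6581 for All_8mer_43276, with G. The same pair had 17831 and 17196 with A on the 6-4PP UV arrays, against 2464 and 3139 with G. On the non-UV arrays the pair was level, at 1133 and 986 with A against 1181 and 978 with G for CPD, and at 1544 and 1154 with A against 1374 and 1129 with G for 6-4PP.

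The other pairs shown above gave the same picture. In all 3 pairs T follows TTAGGG, so each probe with G has the bases of a tandem repeat on both sides. All_8mer_10818, with A before the hexamer and T after it, had 8500 and 6896 on the CPD UV arrays, against 4446 and 4869 for All_8mer_10819, which has G and T there as a tandem repeat does. Their values were 11959 and 12844 with A on the 6-4PP UV arrays, against 2330 and 2322 with G. For the pair with CCCTAA printed, All_8mer_34112 had 6320 and 6327 on the CPD UV arrays, against 3912 and 3742 for All_8mer_46400. With the 6-4PP antibody All_8mer_34112 had 9225 and 10211 on the UV arrays, against 3691 and 3324 for All_8mer_46400. The probe with A was brighter in all 3 pairs on every UV array of both antibodies.

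Over the 15 pairs, the probe with A was the brighter in 14 pairs on the first CPD UV array and in 15 on the second, with median log2 differences of 0.68 and 0.62. On each 6-4PP UV array it was the brighter in 15 of 15 pairs, with median differences of 1.79 and 1.71. The pairs ranged from 1.16 to 2.93 on the first 6-4PP UV array and from 0.59 to 2.83 on the second. On the non-UV arrays the probe with A was brighter in 8 and 10 pairs for CPD and in 10 and 7 pairs for 6-4PP, with medians between -0.0031 and 0.11. The 6-4PP difference was 2.12 and 2.29 where TTAGGG was printed, against 1.34 and 1.46 where CCCTAA was printed.

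The remaining signal of the probes with G can be set against the 550 probes on the array that hold no step at all. These step-free probes had a median of 1617 and 1603 on the CPD UV arrays and of 1954 and 1951 on the 6-4PP UV arrays. With TTAGGG printed and 0 other steps, the 6 probes with A before it had a mean of 9232 ± 768 on the CPD UV arrays (SD of 2 array medians), which is 5.72 times the step-free level. The 4 probes with G before it had 5303 ± 174 there, or 3.29 times that level. On the 6-4PP UV arrays the same probes had 14357 ± 333 with A and 2895 ± 139 with G, or 7.35 and 1.48 times the step-free level. With G before the hexamer and no other step, the CPD signal thus stood further above the step-free probes than the 6-4PP signal did.

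With CCCTAA printed and 0 other steps, the 8 probes with A had 5386 ± 99.0 on the CPD UV arrays and the 4 with G had 3764 ± 71.6. On the 6-4PP UV arrays they had 8983 ± 191 with A and 3442 ± 225 with G. The order of A above G also held at each range of other steps and in each design family. Probes with A had 11361 on the 6-4PP UV arrays at 0 to 1 other steps, 15680 at 2 to 3 and 19508 at 4 to 8. Probes with G had 3419, 6877 and 10651 over the same ranges. By family, the All_8mer probes had 11934 with A and 3328 with G, the All_8mer_13bp probes 17682 and 5584, and the All_9mer_14bp probes 17354 and 8693.

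Pyrimidines before the hexamer divided the antibodies. C before TTAGGG makes a CT step at the junction and T makes a TT step. On the CPD UV arrays the median was 6179 and 5532 with C and 7318 and 6330 with T, so that T lay above C. On the 6-4PP UV arrays it was 13233 and 13422 with C and 7488 and 7746 with T, so that C lay near A, and T lay nearer to G. In 16 pairs that differ only in C or T there, the probe with C was brighter on the CPD UV arrays in 3 and 3 pairs, and on the 6-4PP UV arrays in 14 and 15 pairs.

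Single probes followed the base as well. With the CPD antibody, 115 of 121 probes with A before the hexamer rose above the median sequence, 49 of 70 with C, 45 of 60 with G and 46 of 64 with T, where 39.5% of all sequences were higher. With the 6-4PP antibody, where 36.4% of all sequences were higher and 39.9% lower, 105 probes with A rose and 1 fell, and 59 with C rose. With G before the hexamer 22 rose and 26 fell, and with T 27 rose and 13 fell. Of the 22 probes that were higher with CPD and lower with 6-4PP, 17 had G before the hexamer. The share of all sequences that were higher with CPD and lower with 6-4PP was not computed. The 2 probes lower with CPD were All_9mer_14bp_35871, at -0.43, and All_8mer_54592, at -0.61, both named after their values were seen. The difference between the antibodies passed on the CPD side in 43 of 60 probes with G and 38 of 64 with T, against 21 of 121 with A and 3 of 70 with C, where 33.6% of all sequences passed on that side.

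The 16 8-mers with any base before and after TTAGGG, each held by at least 10 probes, are medians over these same probes. The contrast of A with G was chosen after their values had been seen, so they add no separate support to it. With CPD all 16 rose, by 0.66 to 1.39, where 52.6% of all 32738 8-mers were higher. With 6-4PP 12 rose and 2 fell, where 56.6% were higher and 32.8% lower. After quantile normalization 7 rose with CPD, and 9 rose and 1 fell with 6-4PP. With the dimmest 25% of probes left out, and the arrays centred on the kept probes, 9 rose and 6 fell with 6-4PP. The shares over all 8-mers under these alternatives are not given here. All 8 8-mers with A or C before the hexamer rose with 6-4PP, by 0.87 to 1.40 with A and by 0.89 to 1.27 with C. The 4 with G ranged from -0.59 to 0.19, and GTTAGGGC, at 0.19 (limma adjusted p = 0.0063), was the only one of them to rise, but it was -0.21 with the dimmest probes left out (adjusted p = 0.0045). The highest 6-4PP effect was that of ATTAGGGA, at 1.40, and the highest CPD effect that of ATTAGGGC, at 1.39.

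GTTAGGGT is the 8-mer of the tandem telomere repeat and was held by 24 probes. Its median intensity was 6470 and 5527 on the CPD UV arrays, against 1216 and 1051 on the CPD non-UV arrays. On the 6-4PP arrays it was 4620 and 4285 with UV, against 1422 and 1251 without. The UV arrays were above the non-UV arrays for both antibodies, yet the 6-4PP value stayed below the array median. Its effect was 0.75 for CPD (SE 0.0578, limma adjusted p = 3.88e-06) and -0.54 for 6-4PP (SE 0.0578, limma adjusted p = 3.64e-05), a difference of 1.29 between the antibodies (SE 0.0818, limma adjusted p = 3.53e-06). Without centring the 6-4PP effect was 1.74, so the fall is relative to the median sequence. After quantile normalization neither effect passed, at 0.40 for CPD (adjusted p = 0.109) and -0.12 for 6-4PP (adjusted p = 0.628). GTTAGGGG, at -0.59, was the other 8-mer to fall with 6-4PP. GTTAGGGA, at 0.04 (limma adjusted p = 0.653), and TTTAGGGT, at -0.08 (limma adjusted p = 0.13), did not pass. The difference between the antibodies was on the CPD side in 9 of the 16 8-mers, among them all 8 with G or T in front, and on the 6-4PP side in 5, where 43.6% and 33.3% of all 8-mers passed. The 5 were 3 without either CPD non-UV array, without the first CPD UV array or without the second 6-4PP non-UV array.

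The base after the hexamer went with a difference in 6-4PP signal and with none that passed in CPD signal. A purine after TTAGGG puts a pyrimidine next to CCCTAA on the other strand and adds a step there. On the 6-4PP UV arrays the medians were 13411 and 13829 with A after the hexamer, 13281 and 14219 with G, 11563 and 11859 with C and 8842 and 9044 with T, the base of the tandem repeat. The probes behind these medians were not matched for design family or other steps. On the same arrays the mean of the array medians was 8826 for the All_8mer family and 13643 for the All_9mer_14bp family. Purine minus pyrimidine was 0.03 for CPD (SE 0.0225, limma adjusted p = 0.237) and 0.41 for 6-4PP (SE 0.0225, limma adjusted p = 1.91e-07). The antibodies differed by -0.38 (SE 0.0319, limma adjusted p = 7.14e-06), against -0.12 with an adjusted p of 0.195 after quantile normalization. Of all 2016 6-mers tested, 71.1% passed for CPD, 84.7% for 6-4PP and 75.0% for the difference. In the All_9mer_14bp family alone the CPD value was -0.13 (adjusted p = 0.0288). Pairs that differ only in the base after the hexamer, given without a test, showed the 6-4PP gap where CCCTAA was printed and hardly where TTAGGG was printed. With CCCTAA printed, the median log2 difference on the 6-4PP UV arrays was 0.91 and 0.70 for A minus C, and 0.86 and 0.61 for A minus T, over 4 pairs each. With TTAGGG printed it was -0.12 and 0.048 for A minus C, and -0.056 and -0.11 for A minus T, again over 4 pairs each. For G minus T it was 0.29 and 0.34 with CCCTAA printed, and 0.011 and 0.18 with TTAGGG printed.

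Pyrimidine minus purine before the hexamer, which pools C with T and A with G, was -0.27 for CPD (SE 0.0237, limma adjusted p = 1.17e-05) and -0.17 for 6-4PP (SE 0.0237, limma adjusted p = 2.06e-04). Of the 6-mers, 72.5% passed for CPD, 82.5% for 6-4PP and 73.7% for the difference. After quantile normalization the values were -0.11 and -0.011 and neither passed. The difference between the antibodies, -0.10 (limma adjusted p = 0.0266), was 0.0044 on the unadjusted intensities, and it did not pass without any single non-UV array or without the second 6-4PP UV array, at values from -0.11 to -0.078.

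The signal differed with the printed orientation, and after median centring more so for CPD than for 6-4PP. The probes of each orientation were not matched for flanks, design family or other steps. With TTAGGG printed the median was 8315 and 7532 on the CPD UV arrays, against 5879 and 5430 with CCCTAA printed. On the 6-4PP UV arrays it was 12601 and 12844 with TTAGGG printed, against 10434 and 10471 with CCCTAA printed. The non-UV arrays differed little, at 1233 and 1041 against 1242 and 1039 for CPD. TTAGGG minus CCCTAA was 0.49 for CPD (SE 0.0287, limma adjusted p = 1.61e-09) and 0.31 for 6-4PP (SE 0.0287, limma adjusted p = 2.16e-07), where 87.0% and 92.8% of the 2002 6-mers tested passed in either direction. The medians of that contrast over all those 6-mers were 0.18 and 0.24. The antibodies differed by 0.18 (limma adjusted p = 0.00116), where 79.6% of those 6-mers passed. In the All_9mer_14bp family alone the 6-4PP value was 0.08 (adjusted p = 0.275), and after quantile normalization the CPD value was 0.26 (adjusted p = 0.0598) and the difference between antibodies -0.090. As single probes, 158 of 167 with TTAGGG printed and 97 of 148 with CCCTAA printed rose with CPD, where 39.5% of all sequences were higher.

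Steps outside the hexamer went with more 6-4PP signal, and less evenly with more CPD signal. On the CPD UV arrays the means of the array medians at 0 to 7 other steps were 5658, 5716, 6355, 7787, 7654, 7310, 8488 and 6031, with SDs of 2 arrays between 83.6 and 920. With TTAGGG printed they were 7733, 7611, 7174, 8978, 8554, 8179, 7957 and 6333, so the CPD signal of those probes did not climb steadily. The 6-4PP UV arrays gave 8345, 8693, 11027, 12897, 13076, 13876, 14219 and 14557 over the same numbers of steps, with SDs between 179 and 1259. Only 6 probes had 7 other steps, and the 2 with 8 had 12731 ± 1777 with CPD and 17013 ± 190 with 6-4PP. The slope per other step was 0.09 for CPD (SE 0.0137, limma adjusted p = 1.25e-04) and 0.15 for 6-4PP (SE 0.0137, limma adjusted p = 1.70e-06), and the antibodies differed by -0.06 (limma adjusted p = 0.0113). Slopes passed in 99.7% of all 6-mers for CPD, 100% for 6-4PP and 88.0% for the difference, with medians of 0.17 for CPD and 0.24 for 6-4PP that lie above those of the telomere unit probes. In the All_9mer_14bp family alone the CPD slope was 0.014 (adjusted p = 0.354), after quantile normalization it was 0.030 (adjusted p = 0.0838), and without the second CPD UV array the difference between the antibodies was -0.061 and no longer passed.

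The type of the other step separated the antibodies. Each other TT step added 0.29 for CPD (SE 0.0149, limma adjusted p = 1.82e-09) and 0.04 for 6-4PP (SE 0.0149, limma adjusted p = 0.0338). Each other TC step added 0.09 for CPD (SE 0.0112, limma adjusted p = 0.00114) and 0.42 for 6-4PP (SE 0.0112, limma adjusted p = 2.74e-09). The differences between the antibodies were 0.26 for TT (limma adjusted p = 3.78e-07) and -0.33 for TC (limma adjusted p = 1.46e-07). Each other CT step went with -0.10 for CPD (limma adjusted p = 0.0106) and 0.11 for 6-4PP (limma adjusted p = 0.00348). Other CC steps, which are the commonest step of the hexamer itself, gave 0.03 for CPD (limma adjusted p = 0.375) and 0.06 for 6-4PP (limma adjusted p = 0.0321).

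Slopes on TT steps passed in 100% of all 6-mers for CPD, 99.6% for 6-4PP and 96.6% for the difference, and slopes on TC steps in 41.3%, 100% and 99.9%. Slopes on CT steps passed in 63.4%, 92.1% and 71.2% of them, and slopes on CC steps in 27.2%, 86.5% and 82.8%. Over all 6-mers the median slope on TT steps was 0.70 for CPD and 0.33 for 6-4PP, and that on TC steps 0.02 for CPD and 0.46 for 6-4PP. After quantile normalization the CPD slopes on TC and CT steps (0.028 and -0.075) and the 6-4PP slopes on TT, CT and CC steps (0.014, 0.060 and 0.016) did not pass. The CPD slope on CT steps did not pass without the second CPD non-UV array (-0.074) or without the first CPD UV array (-0.094), and in the All_9mer_14bp family the CPD slope on TC steps was 0.012 (adjusted p = 0.751). In that family the CPD slope on CC steps passed with the opposite sign, at -0.057 (limma adjusted p = 0.0132). The 6-4PP slopes on TT, CT and CC steps did not pass there (0.015, 0.043 and 0.012). The weak 6-4PP slopes on TT and CC steps did not pass without the first 6-4PP non-UV array (0.027 and 0.030) or without either 6-4PP UV array (0.038 and 0.067, and 0.035 and 0.058), and that on TT did not pass without either CPD non-UV array, with saturated spots left out (0.043) or with the unadjusted intensities (0.013).

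The place of the hexamer along the probe had a small effect. Each base further from the 5′ end went with 0.039 for CPD (SE 0.0059, limma adjusted p = 0.00103) and 0.022 for 6-4PP (SE 0.0059, limma adjusted p = 0.0124), where 68.9% of all 6-mers passed for CPD and 70.4% for 6-4PP. The 6-4PP value did not pass without the first 6-4PP UV array or without the second 6-4PP non-UV array (both 0.016). After quantile normalization neither passed, at 0.0070 for CPD (adjusted p = 0.76) and 0.0083 for 6-4PP (adjusted p = 0.703). The difference of 0.016 between the antibodies did not pass (limma adjusted p = 0.153), where 49.4% of 6-mers did, but it passed with a block on the same-numbered arrays of the antibodies (adjusted p = 0.0209) and with a replicate block across all arrays (adjusted p = 0.0428).

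The other 5 ways of reading a telomere repeat in frames of 6 bases parted from TTAGGG in the 6-4PP signal. In 4 of them G stands before the thymine pair. GGGTTA rose by 1.00 with CPD and fell by 0.19 with 6-4PP, while GGTTAG rose by 0.84 with CPD and fell by 0.42 with 6-4PP. GTTAGG rose by 0.72 with CPD and fell by 0.32 with 6-4PP. AGGGTT, which has the pair at its end, rose by 0.57 with CPD and fell by 0.22 with 6-4PP. TAGGGT, which holds no thymine pair, fell with both, by 0.13 with CPD and 0.24 with 6-4PP, and its CPD value was 0.10 when means replaced medians. All of these effects passed (largest limma adjusted p = 4.72e-04), and without centring each value was above 0. GGTTAG, for example, had medians of 6767 and 6039 on the CPD UV arrays, against 1232 and 1045 on the CPD non-UV arrays, and 5088 and 5000 on the 6-4PP UV arrays, against 1538 and 1253 on the 6-4PP non-UV arrays.

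Telomere units of other organisms were also above the median sequence with CPD, and they varied more with 6-4PP. TTGGGG, the unit of the ciliate Tetrahymena, rose by 0.69 with CPD and by 0.62 with 6-4PP. TTAGGC, the unit of the nematode Caenorhabditis elegans, rose by 0.96 with CPD and by 0.72 with 6-4PP. TTTAGG, which lies in the unit of many plants, rose by 1.03 with CPD and by 0.19 with 6-4PP, and its 6-4PP value was -0.15 in the All_9mer_14bp family alone, -0.22 with the dimmest probes left out and 0.12 after quantile normalization (adjusted p = 0.0543). The difference between the antibodies was 0.84 for TTTAGG (limma adjusted p = 1.57e-07) and 0.07 for TTGGGG (limma adjusted p = 0.0126).

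The 6-mers that differ from TTAGGG in 1 base had levels that depended on the place of the change. Each level is the median of its own set of probes, from 307 for TTAAGG to 1228 for TTAGTG. These sets were not matched for flanks, design family or other steps. With the first thymine replaced, both signals lay below the median sequence. ATAGGG had -0.49 with CPD and -0.31 with 6-4PP, and CTAGGG had -0.46 with CPD and -0.19 with 6-4PP, of which the 6-4PP value did not pass after quantile normalization (-0.086). The last of these, GTAGGG, had -0.54 with CPD and -0.35 with 6-4PP. The 6-mers with C or G for the second thymine have a TC step on 1 strand, and there the antibodies split. TCAGGG had -0.43 with CPD and 0.50 with 6-4PP, a difference of -0.93 (SE 0.0441, limma adjusted p = 1.43e-06), and TGAGGG had -0.34 with CPD and 0.51 with 6-4PP, a difference of -0.85 (SE 0.0498, limma adjusted p = 4.36e-06). TAAGGG, which keeps a thymine pair on the other strand, had 0.98 with CPD and 0.89 with 6-4PP. Changes at the fourth, the fifth and the sixth base left both signals above the median sequence, from 0.88 to 1.24 with CPD and from 0.42 to 1.33 with 6-4PP. Of these, the 6-4PP value of TTATGG did not pass in the All_9mer_14bp family alone (0.051), nor that of TTAGCG with the dimmest probes left out (0.058). TTAAGG was the highest of these with either antibody, at 1.24 with CPD and 1.33 with 6-4PP. Changes at the third base gave 0.51 with CPD and 0.49 with 6-4PP for TTCGGG, and 0.82 with CPD and 0.22 with 6-4PP for TTTGGG, whose 6-4PP value was -0.14 in the All_9mer_14bp family alone and -0.16 with the dimmest probes left out.

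The probes with the longest stretch of repeat did not share a direction. All_9mer_14bp_19219, with 11 bases of repeat and G in front of the full unit, had 6887 and 5630 on the CPD UV arrays, against 1312 and 1052 without UV, and 10584 and 9674 on the 6-4PP UV arrays, against 1635 and 1271 without UV. All_8mer_13bp_591 (tatgcattacgggTTAGGGtgcgcacg), with 10 bases of repeat and a second thymine pair after A, had 17980 and 15382 with CPD and UV, and 18810 and 15675 with 6-4PP and UV. All_9mer_14bp_33062 (tatgcaCCCTAAcccggtgcgcgcacg), also with 10 bases, had 4919 and 3594 with CPD and UV, and 4703 and 4653 with 6-4PP and UV. On both CPD UV arrays All_8mer_13bp_591 lay above the upper quartile of the 315 probes (10125 and 9347). All_9mer_14bp_33062 lay below the lower quartile there (5484 and 5070), and All_9mer_14bp_19219 lay between the quartiles.

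Extremes among the probes are given as descriptions, because their values chose them. The largest CPD effect was that of All_9mer_14bp_24377 (tatgcaattataTTAGGGatgcgcacg), which rested on a bright spot with 76398 on the first CPD UV array against 12776 on the second. The first 6-4PP UV array was bright there as well, at 103030 against 22702 on the second. Its spot was at the scanner ceiling on 1 array, and which array that was is not given here. All_9mer_14bp_17879 (tatgcattCCCTAAcacattgcgcacg) had 29249 and 28517 on the CPD UV arrays, against 1297 and 1007 without UV, and 26599 and 30216 on the 6-4PP UV arrays, against 1737 and 1134 without UV. All_8mer_13bp_4094 (gtatgcaTTAGGGcctcattgcgcacg), with a TC step and A before the hexamer, had the largest 6-4PP effect, with 46676 and 42075 on the UV arrays against 1489 and 1345 without UV.

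The difference between the antibodies was largest on the CPD side in All_8mer_13bp_4177 (cgtatgcagttaCCCTAActgcgcacg), at 2.23, and All_9mer_14bp_27684 (tatgcagcgttagTTAGGGtgcgcacg), at 2.22. Both have G before the hexamer and a second thymine pair that also follows G. All_9mer_14bp_27684 had 9245 and 9295 on the CPD UV arrays, against 1215 and 1096 without UV, and 3398 and 3542 on the 6-4PP UV arrays, against 1280 and 1327 without UV. On the 6-4PP side the largest differences were those of All_9mer_14bp_11880 (atgcacTTAGGGggtatcatgcgcacg) and All_9mer_14bp_28041 (tatgcatccacTTAGGGcacgcgcacg), at -1.12 each, both with C before the hexamer and a TC step elsewhere. All_9mer_14bp_28041 had 6153 and 5762 on the CPD UV arrays, against 1245 and 1027 without UV, and 23747 and 22407 on the 6-4PP UV arrays, against 1505 and 1129 without UV.

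The lowest effects came from single bright spots without UV and not from dim UV arrays. All_8mer_13bp_6736 (tatgcatgtgCCCTAAagatgcgcacg) had 3577 and 3555 on the CPD UV arrays, against 63747 and 1175 without UV, and 6551 and 7804 on the 6-4PP UV arrays, against 67571 and 1053 without UV. All_8mer_38143 and All_8mer_13bp_1647 also had 1 bright spot on the first non-UV array of both antibodies, and none of the 3 passed the threshold with either antibody.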

How the data were processed

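The 8 arrays carry synthetic probes of 60 bases. Per the file headers, each deposited file holds the Alexa 488 intensity of every spot on a linear scale, its position-adjusted form and the probe sequence. Tested on the files, the adjusted intensity as deposited is the spot intensity over its neighbourhood's median, scaled by 1 constant per array. The sources used here name no software for this step. A total of 175596 spots with the shared end was kept, the scanner ceiling was 65535, and no array was left out. The number of arrays, 2 per group, limits the precision.

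Values were log2 of the adjusted intensity, averaged over a sequence's spots, less the array's median. For each of 2080 6-mers, merged with their reverse complements, and each of 32738 8-mers, each array's value was the median of the probes that hold it (at least 10). Slopes, flank contrasts and orientation contrasts were computed per array for every 6-mer, by least squares with at least 30 probes or as differences of medians. The step-adjusted level borrows 1 variance from all 6-mers, so its p rests on that variance, and no p is given for its level. All were compared with limma 3.58.1 (lmFit and eBayes, R 4.3.3) in 1 fit over 8 arrays, as UV minus non-UV for each antibody and as the interaction, with Benjamini-Hochberg adjustment over all features and a threshold of 0.05. Tables were handled in Python 3.11.15 with numpy 2.4.6 and pandas 2.3.3. On simulated data for the CPD comparison of 122086 sequences, 20% of log2 changes of 1 and 74% of changes of 2 were recovered, and over 2080 6-mers 94% of changes of 0.2. The simulation changed 50 features by each amount and left the rest unchanged. In the data 39.5% of all sequences were higher and 40.2% lower with CPD. The adjustment was therefore stricter in the simulation, and its recovery does not carry over to the calls given here.

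Sequences are named by a rule: the hexamer, its 5 other circular permutations, telomere units of other organisms, the 18 single-base neighbours, the 16 8-mers, and probes with the fewest or most other steps, the longest repeat stretch, or extreme values. The members, the lists and the contrasts were chosen with earlier results of these data known. The same-numbered UV and non-UV arrays do not deviate together (correlation 0.000789 for CPD and -0.00324 for 6-4PP), so UV and non-UV arrays were not paired. The same-numbered arrays of the antibodies do deviate together within a condition. The main fit treated them as independent, also for the differences between the antibodies. Alternatives were the unadjusted intensities, no centring, quantile normalization, an offset of 100, means for medians, saturated spots, the dimmest 25% of probes or probes with over 1 copy left out, eBayes with trend and robust, arrays of a single antibody, replicate blocks and each array left out. Added after seeing the data were the All_9mer_14bp family alone, the shared end's 6-mers left out, a block within conditions, the contrast of A with G and the single-base pairs.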

Additional observations from a re-analysis of the deposited data

Results flagged for a closer look

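The antibodies differed past the threshold in 10 measures of the telomere unit probes, each tested as an interaction of antibody and UV (CPD minus 6-4PP). The same-numbered arrays of the antibodies deviate together, and the cause was not tested. The level of TTAGGG differed by 0.0741. Its step-adjusted level differed by -0.099 (limma adjusted p = 0.00214, resting on 1 variance shared by all 6-mers), a call lost after quantile normalization (-0.060) and in the All_9mer_14bp family alone (-0.077). The orientation contrast differed by 0.182. The slope on all other steps differed by -0.0643, that on TT steps by 0.258, that on TC steps by -0.327 and that on CT steps by -0.214. The contrast of the base before the hexamer, pyrimidine minus purine, differed by -0.099, and that of the base after it, purine minus pyrimidine, by -0.377. The contrast of A with G before the hexamer differed by -0.865, the largest of the 10.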

How the results depend on the processing

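Relative levels depend on the centring. Without centring, 0 probes were lower with either antibody, 0 8-mers were lower with 6-4PP (limma, adjusted or at an unadjusted p under 0.05), the difference between antibodies passed in 26 probes on the CPD side and 71 on the 6-4PP side and in 2 8-mers on the CPD side, and the level of TTAGGG differed by -0.56. Values below the median sequence then turned positive. With CPD they were 1.53 for TAGGGT, 1.16 for ATAGGG, 1.19 for CTAGGG, 1.11 for GTAGGG, 1.22 for TCAGGG and 1.31 for TGAGGG. With 6-4PP they were 2.04 for TAGGGT, 2.06 for AGGGTT, 2.09 for GGGTTA, 1.86 for GGTTAG, 1.96 for GTTAGG, 1.97 for ATAGGG, 2.09 for CTAGGG, 1.93 for GTAGGG, 1.69 for GTTAGGGG, 1.74 for GTTAGGGT and 2.20 for TTTAGGGT.

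Quantile normalization gave 24 probes higher and 0 lower with CPD (3 lower at an unadjusted p under 0.05), 21 higher and 1 lower with 6-4PP, and 0 on either side for the difference (20 and 13 at an unadjusted p under 0.05). Of the 8-mers, 7 were higher with CPD, 1 was lower with 6-4PP, and the difference passed in 1 on the CPD side and 2 on the 6-4PP side. With CPD the orientation contrast was 0.26, the slope on other steps 0.030, on TC 0.028, on CT -0.075, on CC -0.013, on position 0.0070, and the contrast before the hexamer -0.11. With 6-4PP the slopes were 0.014 on TT, 0.060 on CT, 0.016 on CC and 0.0083 on position, the contrast before the hexamer -0.011, and TTTAGGGT 0.084. The differences between antibodies were -0.17 for the level, -0.060 step-adjusted, -0.090 for orientation, -0.14 for CT, -0.095 before and -0.12 after the hexamer, -0.0013 for position and -0.42 for A minus G.

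In the All_9mer_14bp family alone, with 185 probes and 10 8-mers, 105 probes were higher and 20 lower with CPD, 97 were higher with 6-4PP, and the difference passed in 58 probes and 3 8-mers on the CPD side, while 10 8-mers were higher with CPD. The CPD values were 0.014 for other steps, 0.012 for TC, -0.057 for CC and -0.13 after the hexamer. Those for CC and after the hexamer passed, with the opposite sign to the main fit. The 6-4PP values were 0.075 for orientation, 0.015 for TT, 0.043 for CT, 0.012 for CC, -0.15 for TTTAGG and -0.14 for TTTGGG. The differences were 0.037 for the level, -0.077 step-adjusted, 0.17 for orientation, -0.069 for CC and -0.0022 for position.

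With the dimmest 25% of probes left out, 166 probes were higher and 27 lower with CPD, 62 probes and 6 8-mers were lower with 6-4PP, the level differed by -0.029, and the 6-4PP values were 0.060 for CC, -0.22 for TTTAGG, -0.16 for TTTGGG, -0.37 for GTTAGGGA, -0.21 for GTTAGGGC, -0.16 for TTTAGGGC and -0.020 for TTTAGGGG. With means, TAGGGT had 0.10 with CPD and 1 8-mer passed on the 6-4PP side. An offset of 100 gave 4 probes lower with CPD. Saturated spots left out gave 0.043 for the 6-4PP slope on TT. The unadjusted intensities gave 1 probe lower with CPD, 21 probes and 3 8-mers on the 6-4PP side, 0.013 for the 6-4PP slope on TT and a difference of 0.0044 before the hexamer. A replicate block across UV and non-UV arrays, whose numbers do not pair them, brought the difference in the slope on position, 0.016, past the threshold (adjusted p = 0.0428). A replicate block within conditions, chosen after the data were seen, did so for that slope (adjusted p = 0.0209) and for CC, at -0.034 (adjusted p = 0.0324). It changed no other call of a difference in the hexamer's level, slopes or contrasts. Among single probes it gave 133 on the CPD side and 52 on the 6-4PP side at an unadjusted p under 0.05. Without a block these counts were 114 and 42.

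Leaving out each array in turn gave 1 to 4 probes lower with CPD and 16 to 35 on the 6-4PP side of the difference, and 3 to 5 8-mers there. The CPD slope on CT ranged from -0.13 to -0.074. The 6-4PP slopes ranged from 0.027 to 0.046 on TT, from 0.030 to 0.095 on CC and from 0.016 to 0.029 on position, and GTTAGGGA from -0.071 to 0.15. The differences ranged from -0.084 to -0.044 for other steps, from -0.066 to -0.0014 for CC and from -0.12 to -0.078 before the hexamer. The contrast of A with G passed for each antibody under every alternative run, at 0.41 to 0.62 for CPD and 0.84 to 1.44 for 6-4PP. Most probes have 1 spot, no intensity was background-subtracted, and each group has 2 arrays. The causes of these changes were not tested.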
